A study of Mus musculus with 12 samples.

Results

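The interleukin-1 (IL-1) family was examined in macrophages grown from mouse bone marrow (BMDMs). It was represented by 9 of the 35275 genes counted, which code for cytokines, receptors and natural inhibitors. The 9 genes were chosen by name, and the list was drawn up with results of these libraries in view. Il1f9 in particular had already stood out as a gene with a large difference between olaparib and DMSO. The calls given here therefore describe the fit and are not independent evidence, and the olaparib difference of Il1f9 is given without a p-value.

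RNA was sequenced from 12 bulk cultures of wildtype BMDMs, in 3 groups of 4 libraries that carry the numbers 1 to 4. All groups received IL-4, IL-10 and M-CSF, cytokines that drive bone marrow cells toward an M2 state, and differed in a treatment of 6 days. This was DMSO, the solvent control, olaparib, an inhibitor of poly(ADP-ribose) polymerases, or MNA (methyl-nicotinamide), a methylated form of the vitamin nicotinamide. The study's legend names donor mice without saying which library came from which animal, and its methods describe donors of bone marrow as young mice of either sex, without tying a strain, an age or a sex to a library.

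Counts on genes ran from 21146291 to 31446849 per library. A filter on low counts left 12849 genes for testing, and 8 of the 9 family genes passed it, while Il1r2 did not. The 12 macrophage markers, such as Adgre1, Csf1r and Lyz2, were all tested. They summed to 4930 to 6190 CPM with DMSO, 9460 to 11400 with olaparib and 4530 to 8450 with MNA, where 4530 was replicate 2. The part of this difference in the family's values was not tested. Mast cell and basophil markers, a set that matters here because these cells carry the receptor Il1rl1, summed to 5.66 to 10.1 CPM, and Gata2 was the single tested gene among the 11. On the first 2 principal components, which held 49.8% and 24.9% of the variance, MNA replicate 2 was placed among the DMSO libraries. It was kept as an MNA library and its values are shown apart. Leaving it out lowered the spread that edgeR shares between all groups (common dispersion) from 0.0333 to 0.0123, so it also bears on the olaparib calls.

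IL-1α and IL-1β, the products of Il1a and Il1b, both bind the receptor IL-1R1 and start an inflammatory response through MyD88 and NF-kappaB. IL-36γ, the product of Il1f9 (also called Il36g), uses a different receptor, the IL-36 receptor, and IL-18 uses another. The family is held back at several steps. The receptor antagonist coded by Il1rn occupies IL-1R1 without signalling, the decoy receptor IL-1R2 takes up ligand, and IL-18 binding protein captures IL-18. Il1rl1 codes for ST2, the receptor of the alarmin IL-33, which also exists in a soluble form. IL-1β and IL-18 are made as precursors and are cut by caspase-1 in the inflammasome, so a transcript level says nothing of how much active cytokine was released.

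Levels were compared between the 9 genes as CPM, counts relative to the normalized total of a library, per kilobase of exon. With DMSO, Il1rn was the highest, at 8.94 ± 1.89 CPM per kilobase (mean ± SD, n = 4), and the libraries did not overlap with those of the next gene, Il1rl1, at 2.74 ± 2.27. Il1rl1, Il1r1 (2.17 ± 0.264), Il18bp (1.74 ± 0.388) and Il18 (1.27 ± 0.249) followed, and each overlapped with its neighbour in that order. Il1a stood at 0.716 ± 0.305 and Il1f9 at 0.611 ± 0.121 CPM per kilobase, and these also overlapped. Il1b was far lower, at 0.102 ± 0.0817, and Il1r2 was close to 0 at 0.00614 ± 0.0123. Among the 9 genes, the antagonist thus had the highest transcript level in these M2-cultured cells, and the classical ligands were among the lowest. Other genes of the family were not put on this scale.

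With olaparib, Il1f9 moved from rank 7 to rank 2, at 10.1 ± 2.16 CPM per kilobase, behind Il1rn at 13.1 ± 1.62. The ranges of these 2 genes touched, but Il1rn was above Il1f9 in all 4 olaparib libraries. Il18bp and Il1r1 exchanged places, with overlapping ranges. In the MNA libraries Il1f9 stayed at 0.650 ± 0.221 CPM per kilobase and Il1a moved below Il1b, at 0.169 ± 0.194 against 0.251 ± 0.151, with overlapping ranges.

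**Figure D1:**
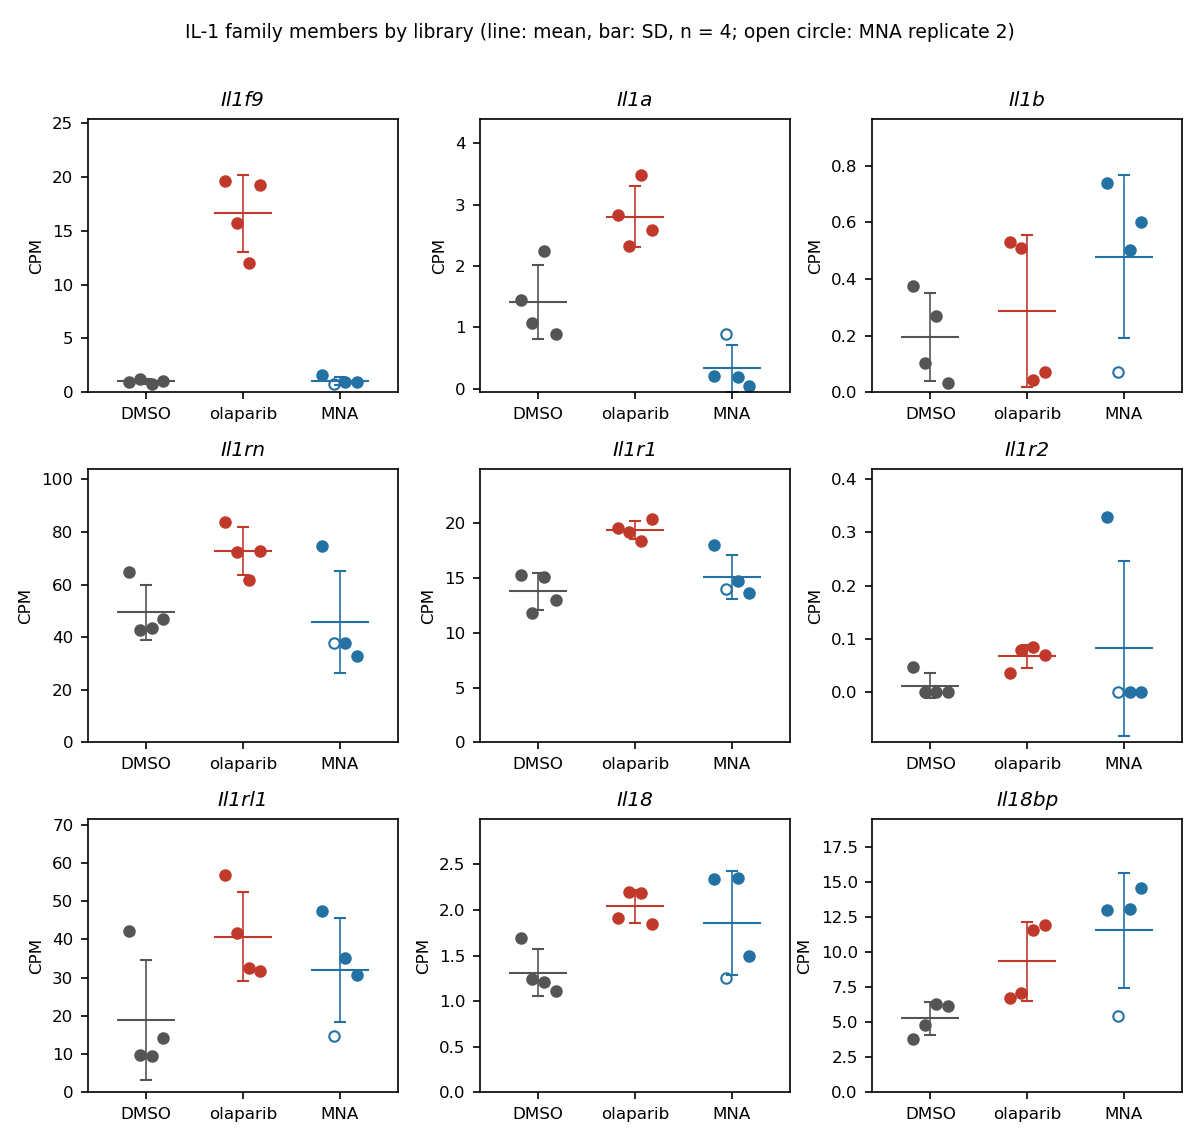
Level of each of the 9 IL-1 family genes in the 12 libraries, in CPM on a linear axis, by group (horizontal line, mean; bar, SD, n = 4; open circle, MNA replicate 2). Il1f9 lies between 12 and 19.6 CPM with olaparib and at 1.6 CPM or less in all other libraries, and the open circle lies among or near the DMSO values for most genes.

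Among the ligands, Il1f9 showed the largest difference of the family between olaparib and DMSO. Il1f9 (ENSMUSG00000044103) lies on chromosome 2, 24186476 to 24193568, on the plus strand of GRCm38. It had 20, 36, 23 and 34 counts in the DMSO libraries 1 to 4, and 554, 400, 286 and 555 counts in the olaparib libraries. In CPM these were 0.938, 1.24, 0.771 and 1.08 with DMSO, and 19.6, 15.7, 12 and 19.3 with olaparib. The lowest olaparib library was thus far above the highest DMSO library, and within the 4 replicate numbers the ratio ran from 12.7 to 20.9. The log2 fold change was 4.04 ± 0.25 (standard error, edgeR), a 16.5-fold difference.

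With MNA, Il1f9 had 1.60, 0.788, 0.965 and 0.925 CPM in replicates 1 to 4, values that overlapped with DMSO (log2 fold change 0.08 ± 0.26, adjusted p = 0.833). The sign of this small difference turned without DMSO replicate 3 (−0.03) or MNA replicate 1 (−0.18), and it was 0.20 ± 0.28 without MNA replicate 2. Olaparib and MNA libraries did not overlap for Il1f9, and their log2 fold change was 3.96 ± 0.25. Of the 31-base words in Il1f9 transcripts, 13.0% also occur in another gene, on either strand, so a part of its reads could be shared. The neighbouring ligand genes of the same cluster, Il1f6, Il1f5 and Il1f10, had at most 4 counts in any library, and Il1f8 had at most 2.

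Il1a (ENSMUSG00000027399, chromosome 2, 129299610 to 129309972, minus strand) fell with MNA, and its higher values with olaparib passed the test only in some fits. Its level was 1.45, 1.07, 2.24 and 0.889 CPM in the DMSO libraries 1 to 4, and 2.83, 2.32, 3.49 and 2.58 CPM with olaparib. All 4 olaparib libraries were above all DMSO libraries, but the log2 fold change of 0.99 ± 0.49 was not called by edgeR (adjusted p = 0.151), nor with the replicate number as a block (1.05, adjusted p = 0.129). It was called when MNA replicate 2 was left out, without a block (0.98, adjusted p = 0.0164, edgeR) and with it (1.04, 0.00246). The fit of the 2 groups alone, olaparib and DMSO, called it too (0.99 ± 0.28, adjusted p = 0.0133, edgeR).

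In the MNA libraries Il1a stood at 0.206, 0.895, 0.193 and 0.0402 CPM in replicates 1 to 4, which are 5, 25, 5 and 1 counts. MNA replicate 2 lay at the lower edge of the DMSO libraries and the other 3 were below all of them. Il1a fell by 2.03 ± 0.57 on the log2 scale (adjusted p = 0.0259, edgeR). Leaving out replicate 2 or 3 of DMSO, or replicate 1, 3 or 4 of MNA, ended this call (largest adjusted p 0.0797), as did the fit of 2 groups alone (0.0784). Without MNA replicate 2 the fall was larger, −3.23 ± 0.48 (adjusted p = 7.11e-05). Between olaparib and MNA, Il1a differed by 3.02 ± 0.57 on the log2 scale (adjusted p = 0.00328), and no library left out ended that call.

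Il1b (ENSMUSG00000027398, chromosome 2, 129364570 to 129371139, minus strand) was counted at 1 to 18 reads per library, so differences in it were hard to detect at this depth. It had 8, 3, 8 and 1 counts with DMSO, 15, 13, 1 and 2 with olaparib, and 18, 2, 13 and 15 with MNA. The olaparib libraries were split, with replicates 1 and 2 above and replicates 3 and 4 at the low end of DMSO (log2 fold change 0.64 ± 0.87, adjusted p = 0.609). The MNA difference was not called either (1.34 ± 0.83, adjusted p = 0.228). MNA replicates 1, 3 and 4 were above every DMSO library, and without MNA replicate 2 the log2 fold change was 1.72 ± 0.72 (adjusted p = 0.0566). Il1a and Il1b lie close to each other on chromosome 2, and in those 3 MNA libraries their levels lay on opposite sides of all DMSO libraries.

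Promoter sequences of Il1f9, Il1a and Il1b are printed because Il1f9 and Il1a had the largest differences of the family, and Il1b lies next to Il1a. RefSeq windows of GRCm38.p6 matched 9 of the 9 genes. Each run holds the 250 bases before an annotated transcript start, 5′ to 3′ on the strand of the gene, and capitals mark matches to 4 short motifs searched on both strands. Il1f9 is at chr2:24186226-24186475 on the plus strand, Il1a at chr2:129309973-129310222 and Il1b at chr2:129371140-129371389, both on the minus strand.
Il1f9: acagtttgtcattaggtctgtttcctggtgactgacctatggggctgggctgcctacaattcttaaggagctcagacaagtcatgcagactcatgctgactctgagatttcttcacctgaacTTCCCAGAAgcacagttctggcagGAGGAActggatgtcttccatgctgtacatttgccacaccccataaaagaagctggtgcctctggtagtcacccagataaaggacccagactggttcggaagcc
Il1a: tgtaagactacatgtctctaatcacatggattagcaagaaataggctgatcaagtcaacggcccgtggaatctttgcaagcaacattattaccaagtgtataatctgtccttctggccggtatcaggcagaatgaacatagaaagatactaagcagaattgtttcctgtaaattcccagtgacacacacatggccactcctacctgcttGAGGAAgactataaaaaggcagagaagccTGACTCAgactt
Il1b: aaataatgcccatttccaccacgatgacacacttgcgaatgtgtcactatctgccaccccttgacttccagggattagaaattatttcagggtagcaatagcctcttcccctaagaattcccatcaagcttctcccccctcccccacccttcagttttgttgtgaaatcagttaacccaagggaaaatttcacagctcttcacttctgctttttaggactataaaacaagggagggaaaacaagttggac

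The motifs were GGANTTTCC for NF-kappaB, TTCNNNGAA for STAT factors, TGANTCA for AP-1 and GAGGAA for PU.1 and other ETS factors, where N is any base. Of all 32851 windows of this length, 1.07%, 7.02%, 6.75% and 23.3% held them in that order. Il1f9 had a STAT match that begins 128 bases before the start and an ETS match at 104 bases, and these did not overlap. Il1a had an ETS match at 41 bases and an AP-1 match at 12 bases, and Il1b had no match to the 4 motifs in this window. Among the other windows, the first start of Il1rn held an AP-1 match at 141 bases and Il1r2 a STAT match at 111 bases. These matches are descriptions of letters only.

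The receptor antagonist gene Il1rn (ENSMUSG00000026981, chromosome 2, 24336853 to 24351494, plus strand) was abundant in every group. Its level was 64.9, 42.7, 43.3 and 47.0 CPM in DMSO replicates 1 to 4, and 83.8, 72.5, 61.8 and 72.8 CPM with olaparib. Of the olaparib libraries, 3 were above every DMSO library, and within each replicate number olaparib was higher, by a ratio of 1.29 to 1.70. The log2 fold change was 0.56 ± 0.23 and not called without a block (adjusted p = 0.0933, edgeR), and 0.58 ± 0.13 and called with the replicate number as a block (adjusted p = 0.0132). It was also called without MNA replicate 1 (adjusted p = 0.0133) or MNA replicate 2 (0.0466), and in the fit of 2 groups alone (0.00521).

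MNA gave Il1rn levels of 74.8, 37.6, 37.6 and 32.9 CPM in replicates 1 to 4. Replicate 1 was above all DMSO libraries and the other 3 below all of them, and the log2 fold change was −0.11 ± 0.23 (adjusted p = 0.733). Its sign turned without DMSO replicate 1 (0.04) or MNA replicate 4 (0.02). Set against olaparib, the difference was 0.67 ± 0.23 (adjusted p = 0.0595). It was called without MNA replicate 1 (1.01, adjusted p = 0.00148). In DMSO, olaparib and MNA alike, the library numbered 1 had the highest Il1rn level.

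Of the receptors, Il1r1 (ENSMUSG00000026072, chromosome 1, 40225080 to 40317257, plus strand) rose with olaparib and had the tightest replicates. The signalling receptor for IL-1α and IL-1β had 15.3, 11.8, 15.1 and 13.0 CPM with DMSO and 19.6, 19.2, 18.4 and 20.4 CPM with olaparib. The groups did not overlap, the log2 fold change was 0.49 ± 0.11 (adjusted p = 0.00749, edgeR), and this call held in every alternative (largest adjusted p 0.0278) and, with all libraries, at a threshold of 0.01. With MNA it had 18, 14, 14.7 and 13.6 CPM, which overlapped with DMSO (0.12 ± 0.11, adjusted p = 0.392). The difference between olaparib and MNA was 0.37 ± 0.11 (adjusted p = 0.0315), and removing any 1 of the olaparib libraries, or replicate 3 or 4 of MNA, ended the call (largest adjusted p 0.0922). Adgre1, a macrophage marker, was also higher with olaparib, at 366 to 415 CPM against 165 to 239 with DMSO, and its part in the Il1r1 result was not tested. In bulk RNA, a change in the share of expressing cells and a change in RNA per cell cannot be told apart.

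The decoy receptor gene Il1r2 (ENSMUSG00000026073, chromosome 1, 40074079 to 40125231, plus strand) was at or near the detection limit. It had 1, 0, 0 and 0 counts with DMSO, 1, 2, 2 and 2 with olaparib, and 8, 0, 0 and 0 with MNA. MNA replicate 1 alone exceeded 3 counts, the floor used here, so no fold change is given.

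Il1rl1 (ENSMUSG00000026069, chromosome 1, 40429570 to 40465415, plus strand), which codes for the IL-33 receptor ST2, varied most between replicates of the DMSO group among the genes above 1 CPM. It stood at 42.2, 9.74, 9.45 and 14.2 CPM in DMSO replicates 1 to 4, and at 56.9, 41.8, 32.6 and 31.7 CPM with olaparib. DMSO replicate 1 lay inside the olaparib range, while the other 3 were below it. Within each replicate number olaparib was higher, by a ratio of 1.35 to 4.29. The log2 fold change was 1.12 ± 0.47 without a block (adjusted p = 0.0942, edgeR) and 1.35 ± 0.31 with the replicate block (adjusted p = 0.0130). It was 1.87 without DMSO replicate 1 (adjusted p = 0.0057), 1.14 without MNA replicate 2 (0.0299) and 1.14 in the fit of 2 groups alone (0.0427).

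In the MNA libraries Il1rl1 had 47.5, 14.8, 35.1 and 30.7 CPM, which overlapped with DMSO. The log2 fold change of 0.77 ± 0.47 was not called (adjusted p = 0.218, edgeR). It was 1.03 ± 0.42 without MNA replicate 2 (adjusted p = 0.0507) and 1.52 without DMSO replicate 1 (adjusted p = 0.0332). As for Il1rn, the library numbered 1 was the highest of its group in all 3 groups. Of the 11 markers of mast cells and basophils, which carry ST2, 10 were at 0.849 CPM or less in every library. Mcpt8 was at 0 with DMSO and olaparib and at 0.165 CPM or less with MNA, and Mcpt4 was at 0 in every library. The highest of the 10 were found with MNA, where Kit reached 0.849, Hdc 0.603 and Prss34 0.502 CPM. Gata2 stood at 4.49 to 9.86 CPM over all libraries and was not called in any comparison. The part of these markers in the Il1rl1 values was not tested. The soluble and the membrane form of ST2 are not separated by counts per gene, and the IL-33 gene itself, Il33, had at most 4 counts per library.

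**Figure D2:**
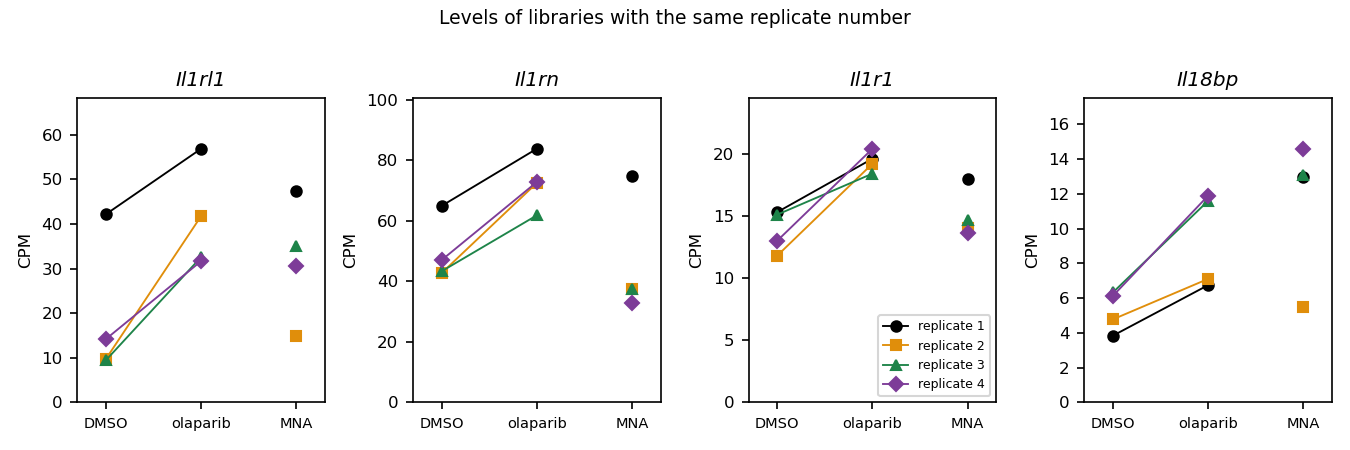
CPM of Il1rl1, Il1rn, Il1r1 and Il18bp on linear axes that start at 0, with 1 marker shape per replicate number and lines joining the DMSO and olaparib libraries of the same number. Every line rises from DMSO to olaparib, and replicate 1 is the highest in each group for Il1rl1 and Il1rn.

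Il18 (ENSMUSG00000039217, chromosome 9, 50554827 to 50581840, plus strand) was a low transcript. It had 36, 36, 36 and 35 counts with DMSO, 54, 56, 52 and 53 with olaparib, and 57, 35, 61 and 37 with MNA. In CPM all olaparib libraries (1.85 to 2.20) were above all DMSO libraries (1.11 to 1.69), with a log2 fold change of 0.64 ± 0.24 that was not called (adjusted p = 0.0633, edgeR). It was called by DESeq2 (adjusted p = 0.0482), and by edgeR without MNA replicate 2 (0.0280), without DMSO replicate 1 (0.0462) and in the fit of 2 groups alone (0.0235). With MNA the levels were 2.34, 1.25, 2.35 and 1.49 CPM (0.51 ± 0.24, adjusted p = 0.118), and without MNA replicate 2 the difference was 0.66 ± 0.23 (adjusted p = 0.0272). Its difference between olaparib and MNA was 0.13 ± 0.23 (adjusted p = 0.736) and turned to −0.02 without MNA replicate 2.

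Il18bp (ENSMUSG00000070427, chromosome 7, 102014885 to 102018690, minus strand), the gene for the protein that captures IL-18, rose with MNA, and its higher values with olaparib passed the test only in some fits. The 2 comparisons share the DMSO libraries. It had 3.84, 4.78, 6.33 and 6.13 CPM in DMSO replicates 1 to 4, and 6.75, 7.11, 11.6 and 11.9 CPM with olaparib. The groups did not overlap, and the ratio within a number was 1.49 to 1.94. The log2 fold change of 0.82 ± 0.30 was not called without a block (adjusted p = 0.0598, edgeR) and was called with it (0.79 ± 0.22, adjusted p = 0.0242). DESeq2 (0.0248), the fit of 2 groups alone (0.0093) and the fit without MNA replicate 2 (0.00506) called it too.

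With MNA, Il18bp had 13.0, 5.48, 13.1 and 14.6 CPM. Replicate 2 lay within the DMSO range, and the other 3 were above it and above every olaparib library. The log2 fold change was 1.12 ± 0.30 (adjusted p = 0.0227, edgeR), and 1.35 ± 0.21 without MNA replicate 2 (adjusted p = 0.000107). Leaving out replicate 2 of DMSO, or replicate 1, 3 or 4 of MNA, ended the call (largest adjusted p 0.0723), and the fit of 2 groups alone did so too (0.0647). Olaparib was below MNA by a log2 fold change of −0.30 ± 0.29 (adjusted p = 0.498), and by −0.54 ± 0.21 without MNA replicate 2 (adjusted p = 0.0492). The 3′ end of Il18bp overlaps with Numa1 on the opposite strand, a gene at 130, 137 and 140 CPM in the DMSO, olaparib and MNA means, and how strand was used in the counting was not found.

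Across the family, 2 of the 8 tested genes, Il1f9 and Il1r1, were called up with olaparib against DMSO, where 14.3% of all 12849 tested genes were called up and 12.8% down. The olaparib difference of Il1f9 was known when the list was drawn up, so its part in this count, and in the median and counts that follow, is no evidence. All 8 had a positive log2 fold change, with a median of 0.73 against 0.00 over all tested genes. With the replicate block, 5 genes were called up, against 15.4% of all tested genes (13.4% down). Without MNA replicate 2 there were 7, against 22.5% of the 13023 genes then tested (21.2% down). The groups did not overlap for 5 genes (Il1f9, Il1a, Il1r1, Il18 and Il18bp), and for 41.0% of all tested genes.

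With MNA against DMSO, Il18bp was called up and Il1a down, where 16.3% and 12.3% of all tested genes were called. The median log2 fold change of the 8 genes was 0.32 against 0.00. Non-overlap was found for none of the 8 genes, and for 12.4% of all tested genes. Without MNA replicate 2, Il18 and Il18bp were called up and Il1a down, against 27.2% up and 26.9% down among all 13023 genes then tested, and Il1a, Il1b and Il18bp did not overlap, as did 54.2% of all genes. The family's shares of calls and of genes without overlap were thus not above those of all genes in this setting.

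Between olaparib and MNA, Il1f9, Il1a and Il1r1 were called higher with olaparib, against 10.9% of all tested genes called up and 10.9% down. Here too the high olaparib level of Il1f9 was known beforehand, so its part in these counts is no evidence. The same 3 genes did not overlap, as did 21.2% of all genes. Without MNA replicate 2 these 3 were again called up and Il18bp was called down, against 21.5% and 20.7%, and the 4 did not overlap, as did 46.2% of all genes.

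**Figure D3:**
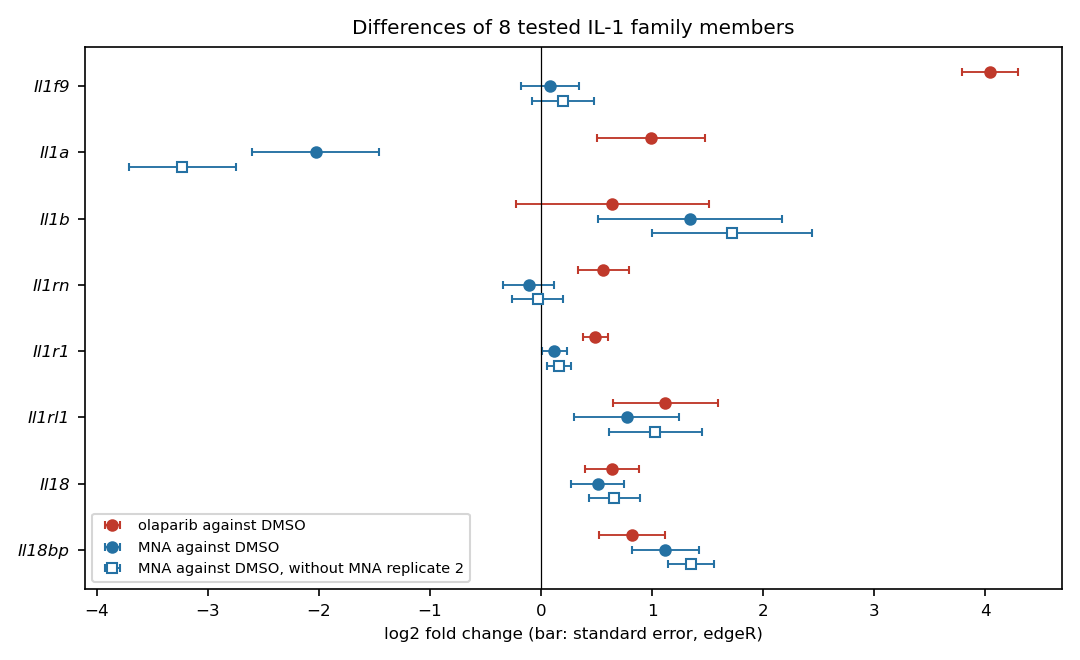
Log2 fold change (x axis) with its standard error from edgeR for the 8 tested IL-1 family genes, for olaparib against DMSO (red), MNA against DMSO (filled blue) and MNA against DMSO without MNA replicate 2 (open blue squares). Il1f9 stands at 4.04 with olaparib and 0.08 with MNA, and Il1a at 0.99 and −2.03.

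Ratios within a library are not shifted by its depth, but are less certain where counts are low. They were taken on CPM per kilobase. Il1rn over the sum of Il1a and Il1b ran from 6.12 to 18.2 with DMSO, from 6.23 to 9.80 with olaparib and from 13.8 to 27.4 with MNA. Olaparib libraries were within the DMSO range, and MNA libraries lay above all olaparib libraries and partly above DMSO. With MNA, Il1a had 1 to 25 counts and Il1b 2 to 18, so this ratio carries a large counting error there. Il1f9 over Il1rn was 0.0485 to 0.0975 with DMSO, 0.654 to 0.891 with olaparib and 0.0704 to 0.0943 with MNA, so that Il1f9 was closest to the level of the antagonist gene in the olaparib libraries. Il18bp over Il18 overlapped between all 3 groups, at 0.776 to 1.88, 1.10 to 2.19 and 1.49 to 3.33. Il1rl1 over Il1r1 was 0.577 to 1.01 in DMSO replicates 2 to 4, 2.54 in DMSO replicate 1, and 1.43 to 2.68 with olaparib. With MNA it was 0.975 in replicate 2 and 2.09 to 2.44 in the other 3, so the ranges of all 3 groups overlapped.

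**Figure D4:**
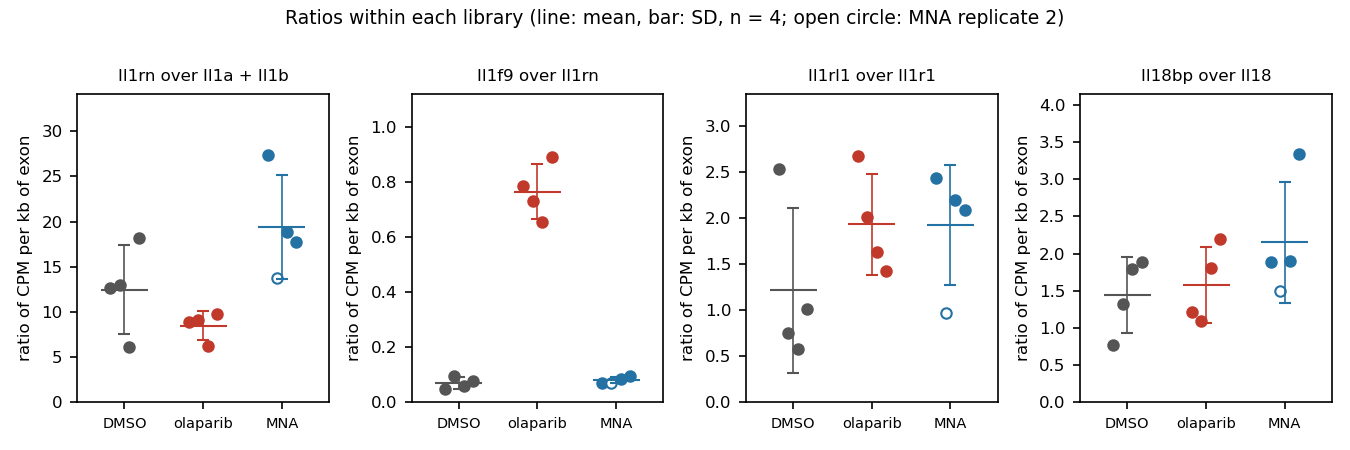
Ratios of CPM per kilobase of exon within each library on linear axes that start at 0 (horizontal line, mean; bar, SD, n = 4; open circle, MNA replicate 2). Il1f9 over Il1rn lies at 0.654 to 0.891 with olaparib and at 0.0975 or less in all other libraries, and the ratio of Il18bp to Il18 overlaps between the groups.

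Partner genes of the family were followed in a list of 12 other ligands, receptors and co-receptors, of which 4 were tested. With olaparib 2 were called up (50%) and 1 down (25%), against 14.3% and 12.8% of all tested genes. A list of 4 tested genes is too short to compare these shares. Il1rap, the co-receptor that IL-1R1, ST2 and the IL-36 receptor share, was at 26.6 ± 1.76 CPM with DMSO and fell to 20.5 ± 1.26 (−0.38 ± 0.07 on the log2 scale, adjusted p = 0.00357, edgeR) and did not overlap with DMSO. Sigirr, an inhibitory receptor of the family, rose from 1.13 ± 0.244 to 2.35 ± 0.681 CPM (1.04 ± 0.29, adjusted p = 0.0203). Il18rap, the second chain of the IL-18 receptor, rose from 0.247 ± 0.115 to 0.827 ± 0.190 CPM (1.72 ± 0.50, adjusted p = 0.0250). Sigirr was no longer called once replicate 2 of DMSO, or replicate 2 or 4 of olaparib, was left out (largest adjusted p 0.0662). The same held for Il18rap and replicate 1, 2 or 3 of DMSO, or replicate 1 or 4 of olaparib (0.0715).

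The receptor for IL-36γ is coded by Il1rl2, which lies between Il1r1 and Il1rl1 on chromosome 1. It had 36.9 to 41.7 CPM with DMSO and 37.9 to 50.9 CPM with olaparib, which overlapped (log2 fold change 0.23 ± 0.22, adjusted p = 0.464). With MNA it had 17.6, 36.9, 20.7 and 14.8 CPM in replicates 1 to 4, and it fell by 0.79 ± 0.22 on the log2 scale (adjusted p = 0.0259, edgeR). MNA replicate 2 was again within the DMSO range, and the other 3 were below it. The Il1rl2 call ended when any 1 of the DMSO libraries, or replicate 1, 3 or 4 of MNA, was removed (largest adjusted p 0.0773). Without MNA replicate 2 the log2 fold change was −1.14. Il18rap rose with MNA as well (1.92 ± 0.50, adjusted p = 0.0212), a call that ended on removal of replicate 2 or 3 of DMSO, or replicate 1, 3 or 4 of MNA (largest adjusted p 0.0696). Il18r1, the ligand-binding chain of the IL-18 receptor, was too low to test, with 0, 0, 1 and 0 counts with DMSO, 2, 2, 11 and 9 with olaparib, and 7, 5, 6 and 11 with MNA. Both treated groups lay above every DMSO library for Il18r1, MNA replicate 2 included. Olaparib replicates 1 and 2, at 2 counts each, were below the floor of 3 counts, so no fold change is given.

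Lymphocytes also carry the IL-18 receptor, and some of their markers were higher in the treated libraries. Of 9 lymphoid markers, 6 were tested. Cd3e, Nkg7 and Thy1 were called up with MNA, Cd3e was called up with olaparib, and Il7r was called down with both. Nkg7 had 1.97, 0.0716, 1.97 and 2.21 CPM in MNA replicates 1 to 4 against 0 to 0.134 with DMSO. The 9 summed to 537 to 669 CPM with DMSO, 453 to 546 with olaparib and 387 to 509 with MNA, nearly all from Il7r, at 382 to 667 CPM. Of 6 B cell markers, the 4 tested (Cd79a, Cd79b, Ms4a1 and Ighm) were called up with MNA and not called with olaparib. Their list summed to 1.59 to 3.38 CPM with DMSO, 3.71 to 9 with olaparib and 3.04 to 23.1 with MNA, where 3.04 was replicate 2. The part of these markers in the Il18r1 and Il18rap values was not tested.

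Of 21 tested genes for the inflammasome and for cytokine processing and release, 10 were called up (47.6%) and 1 down (4.76%) with olaparib, against 14.3% and 12.8% of all tested genes, with a median log2 fold change of 0.23. Pycard, the adaptor ASC, rose from 47.9 ± 2.98 to 92.8 ± 6.63 CPM (0.95 ± 0.11, adjusted p = 0.000152, edgeR), and Panx1, a membrane channel, from 15.4 ± 0.873 to 33.0 ± 1.26 CPM (1.10 ± 0.16, adjusted p = 0.000837). Casp4, an inflammatory caspase, fell from 18.2 ± 3.07 to 10.3 ± 0.671 CPM (−0.83 ± 0.11, adjusted p = 0.000524). With MNA, 4 were called up (19.0%) and 1, Capn2, down (4.76%), against 16.3% and 12.3% of all tested genes, with a median of 0.16. The up calls numbered 2 without replicate 2, 3 or 4 of DMSO or replicate 1, 3 or 4 of MNA. There were 7 up and 3 down calls without MNA replicate 2 (33.3% and 14.3%), against 27.2% and 26.9% of all genes. The down count was 0 in edgeR with any other library removed (0 to 3 at an unadjusted p under 0.05) and under RLE, upper-quartile or total-count scaling (1 unadjusted in each). Casp1, the protease that cuts IL-1β and IL-18, had 111, 72.5, 115 and 127 CPM in MNA replicates 1 to 4 against 63.6 to 70.0 with DMSO (0.70 ± 0.13, adjusted p = 0.0142). Panx1 (0.76 ± 0.16, adjusted p = 0.0142) and the sensor Nlrp3 (1.37 ± 0.38, adjusted p = 0.0247) were the next by p. Casp1 and Panx1 kept their call without any 1 library, while that of Nlrp3 ended on removal of replicate 2, 3 or 4 of DMSO, or replicate 1, 3 or 4 of MNA (largest adjusted p 0.0758).

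Of 34 genes for signalling from the IL-1 receptor, all tested, 4 were called up (11.8%) and 8 down (23.5%) with olaparib, against 14.3% and 12.8% of all tested genes, with a median of −0.07. With 1 library left out there were 3 to 7 up and 4 to 10 down, the most without MNA replicate 2 and the fewest down calls without replicate 4 of DMSO or olaparib. Without MNA replicate 2 the shares were 20.6% up and 29.4% down, against 22.5% and 21.2% of all genes. The NF-kappaB subunit Rel (−0.50 ± 0.09, adjusted p = 0.00342, edgeR) and the adaptor Tab2 (−0.37 ± 0.07, adjusted p = 0.00439) fell, and the kinase TAK1, coded by Map3k7, rose (0.27 ± 0.06, adjusted p = 0.00848). With MNA 4 were called up (11.8%) and 6 down (17.6%), against 16.3% and 12.3%, with a median of 0.04. These counts were 0 and 0 in edgeR without MNA replicate 3 (5 and 7 at an unadjusted p under 0.05) or MNA replicate 4 (6 and 6). Without MNA replicate 2 they were 8 and 10 (23.5% and 29.4%), against 27.2% and 26.9% of all genes. Peli2 (−0.66 ± 0.15, adjusted p = 0.0159) and Jun (−0.74 ± 0.19, adjusted p = 0.0219) fell and Mapk9 rose (0.36 ± 0.09, adjusted p = 0.0222). Removing replicate 3 or 4 of MNA ended these 3 calls. Jun and Mapk9 also lost theirs when replicate 2 of DMSO or replicate 1 of MNA was removed, and Jun when replicate 3 of DMSO was (largest adjusted p of the 3 genes 0.0726).

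The last list held 33 genes that IL-1 and NF-kappaB are known to induce, of which 23 were tested. With olaparib 4 were called up (17.4%, against 14.3% of all tested genes), with a median of 0.28, and the remaining 19 were not called (2 of them lower at an unadjusted p under 0.05, edgeR). With MNA replicate 2 left out, 9 of 25 were called up and 4 down, against 22.5% and 21.2% of all genes, and in the fit of 2 groups alone 7 and 4. Icam1, an adhesion molecule, rose from 19.7 ± 2.24 to 68.0 ± 6.89 CPM (1.79 ± 0.29, adjusted p = 0.00148, edgeR), Hp, haptoglobin, from 0.509 ± 0.0967 to 3.07 ± 0.846 CPM (2.58 ± 0.46, adjusted p = 0.00266), and Nos2, the inducible NO synthase, from 18.9 ± 4.41 to 59.1 ± 27.2 CPM (1.64 ± 0.32, adjusted p = 0.00393). With MNA 9 were called up (39.1%) and 5 down (21.7%), against 16.3% and 12.3%, with a median of 0.19. The counts were 4 and 0 in edgeR without replicate 3 or 4 of MNA (8 lower at an unadjusted p under 0.05 in each). Without MNA replicate 2 they were 11 and 8 of 25 (44.0% and 32.0%), against 27.2% and 26.9% of all genes. The chemokine gene Ccl3 had 49.7, 6.48, 50.4 and 48.7 CPM in MNA replicates 1 to 4 against 4.59 to 9.94 with DMSO (2.64 ± 0.50, adjusted p = 0.0142). Icam1 (1.39 ± 0.28) and Csf1 (0.84 ± 0.15) rose with the same adjusted p, and the 3 calls held without any 1 library.

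In all 4 lists together, 82 genes were tested. With olaparib 20 were called up (24.4%) and 10 down (12.2%), against 14.3% and 12.8% of all tested genes. With MNA 18 were called up (22%) and 13 down (15.9%), against 16.3% and 12.3%. The MNA counts changed with the libraries kept. Without MNA replicate 3 edgeR called 6 up and 0 down, with 21 and 18 at an unadjusted p under 0.05, and without MNA replicate 4 it called 6 and 0, with 20 and 16. With DMSO replicate 1, 2, 3 or 4 or MNA replicate 1 left out there were 7 to 17 up calls and 1 to 7 down calls. Without MNA replicate 2 there were 27 and 22 of 84 (32.1% and 26.2%), against 27.2% and 26.9% of all genes. The share of all genes was not computed with any other library left out. Down calls with olaparib numbered 6 without DMSO replicate 4 or olaparib replicate 4, and 16 without MNA replicate 2 (19.0%, against 21.2% of all genes).

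**Figure D5:**
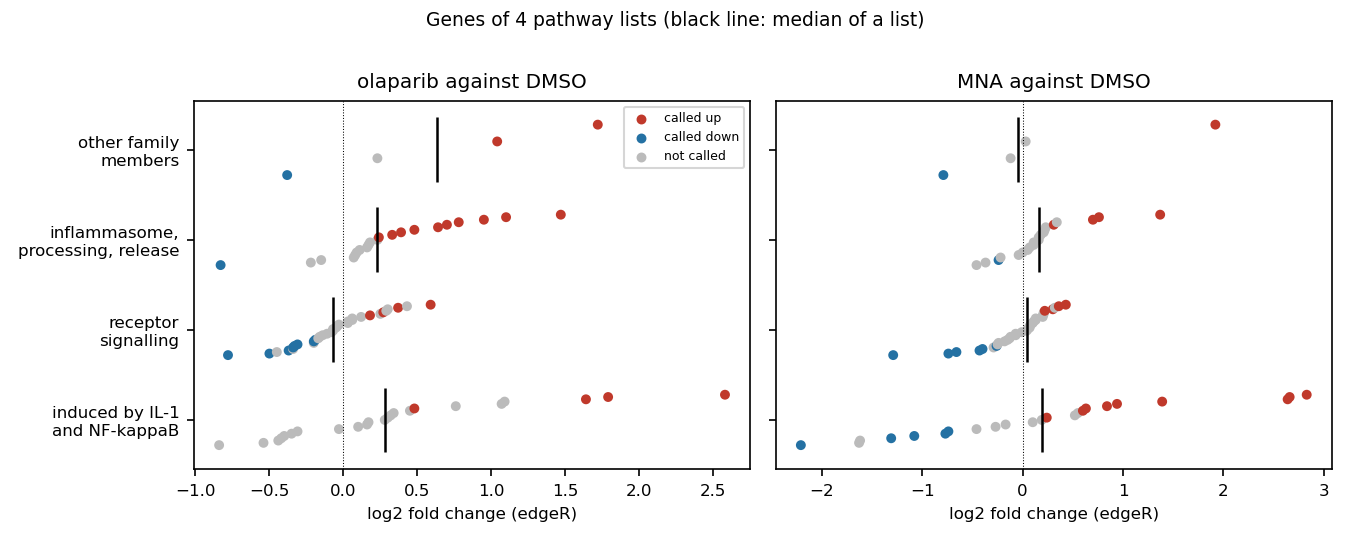
Log2 fold change (x axis, edgeR) of each tested gene in the 4 pathway lists (rows) for olaparib against DMSO (left) and MNA against DMSO (right), coloured by call, with the median of each list as a black line. With olaparib, 10 of the 21 inflammasome genes are called up, and the medians of the lists run from −0.07 to 0.63.

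Neutrophil markers had a higher summed level in most treated libraries. The 13 markers summed to 49.0 to 167 CPM with DMSO, 157 to 253 with olaparib and 118 to 274 with MNA, mostly from Mmp9 and Mmp8. Ly6g was at 0 and Mpo and Elane at 0.141 CPM or less with DMSO and olaparib. S100a9 and Ngp were at 2.39 CPM or less in those groups, and MNA replicate 4 had 20.8 and 15 CPM of these 2 genes. Neutrophils can express Il1b, Il1rn and Il1r2, and the part of these markers in the family's values was not tested. The 7 eosinophil markers summed to 3.92 to 7.02 CPM with DMSO, 31.4 to 59.2 with olaparib and 5.01 to 10.1 with MNA, mostly from Siglecf. Siglecf and Ear6 (0.389 to 0.906 CPM with olaparib against 0.0635 to 0.235 with DMSO) were called up with olaparib. Ccr3 was too low to test, at 0.157 to 0.565 CPM with olaparib and 0.0938 or less with DMSO. Epx and Prg2 were at 0.0344 CPM or less with DMSO and at 0 with olaparib. The 8 dendritic cell markers summed to 18 to 21.2, 18.6 to 23.6 and 18.3 to 27.1 CPM with DMSO, olaparib and MNA, mostly from Zbtb46. Ccr7 was called up with both treatments, at 0.0335 to 0.381, 0.707 to 2.02 and 0.43 to 10.6 CPM in the same order. Xcr1 was called down with olaparib, and Zbtb46 and Itgae were not called. The 9 stromal and epithelial markers summed to 127 to 168, 161 to 216 and 43.2 to 142 CPM. The part of these lists in the family's values was not tested either.

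For each gene, the other tested genes with the most similar pattern over the 12 libraries were taken by Pearson r of log2 CPM. The 12 points fall into the 3 treatment groups, so these values are descriptions. Il1f9 was most like Zmat3 (r = 0.986), Clec4d (0.985) and Ass1 (0.983), and Il1a most like Ankrd55 (0.987) and Cd22 (0.985). Il18bp was most like H2-K1 (0.987), Parp12 (0.978) and Tap1 (0.970), of which H2-K1 and Tap1 act in antigen presentation by MHC class I. Il1rn followed Cysltr1 (0.948), Tiam1 (0.943) and Eno1 (0.921), and Il1r1 followed Naip6 (0.970), Ppfia3 (0.964) and Adgre1 (0.960). The genes nearest to Il1rl1 were Mcub (0.966), Lrmp (0.955) and Gm10797 (0.939), those nearest to Il18 were Xkr5 (0.965), Mmp23 (0.946) and Ly86 (0.945), and those nearest to Il1b were Clcn1 (0.910), Gm28913 (0.884) and Zfc3h1 (0.879). Within the family, Il1rl1 and Il18 were the closest pair (r = 0.847), and Il1a and Il18bp the most opposed (−0.464).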

How the data were processed

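RNA was measured in 12 libraries of BMDMs. The files deposited by the authors hold, for each library, whole-number read counts for every Ensembl gene, not normalized. According to the study's methods and the submitters' notes these came from stranded mRNA libraries aligned to GRCm38 with STAR 2.5.2b, and which strand column was counted was not found. Symbols and positions were taken from GENCODE (GRCm38), in which 34490 of 35275 genes had a name, and promoters from RefSeq.

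Samples were grouped by their labels. Genes were kept by filterByExpr of edgeR 4.0.16 (minimum count 10, minimum total 15) and tested in 1 fit of the 12 libraries with TMM normalization and the quasi-likelihood F test. Calls were made where the p-value, adjusted over all tested genes by Benjamini-Hochberg, was under 0.05. Standard errors came from the F value. The floor was set at 3 counts per library. The code was tested on simulated counts. Depths give counting error only, and nothing in the labels says that libraries of a group came from separate animals, so p-values measure the spread between these libraries.

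The 9 genes, the 4 pathway lists (104 genes) and the marker lists were chosen with earlier results of these data known. Named genes are the 9, in each list and comparison the 3 of lowest p, and the 3 most similar genes of each, of which 1 is not reported here. Il18r1, Il1f5, Il1f6, Il1f8, Il1f10, Il33, Il1rl2 and Capn2 were named after their values were seen, as were single marker genes. Same-numbered olaparib and DMSO libraries deviated from their group means together (r over genes 0.227, 0.172, 0.225 and 0.408). Libraries of different numbers were not compared in this way. The calls come from the fit without a block. A fit with the number as a block, which also covers the MNA libraries, is given as an alternative. Alternatives were DESeq2 1.42.0, RLE, upper-quartile and total-count scaling, no filter, a mean of at least 50 counts, the block, 2 groups alone, a threshold of 0.01, and each library left out.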

Additional observations from a re-analysis of the deposited data

Results flagged for a closer look

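In 4 of the 27 pairs of a gene and a group, 1 library lay apart from the other 3 by Dixon's test at the 95% level. In 2 of them, both of Il1r2, the other 3 libraries were at 0, so that any count in the fourth would have been picked out, and these carry no information. They are Il1r2 at 0.0469 CPM in DMSO replicate 1 and at 0.329 CPM in MNA replicate 1, which are 1 and 8 counts. Among the other 25 pairs there were 2, and chance alone would give about 1 in 20. Il1rl1 in DMSO replicate 1 had 42.2 CPM against 9.45 to 14.2 in the other DMSO libraries, and without it the olaparib difference was called (adjusted p = 0.0057, edgeR). Il1rn in MNA replicate 1 had 74.8 CPM against 32.9 to 37.6.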

How the results depend on the processing

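Of 518 log2 fold changes of single family genes under the alternatives, 455 kept their direction and their side of the threshold, 35 became called, 22 lost their call and 6 changed sign. The 6 were of differences that were not called: Il1f9 with MNA (−0.03 without DMSO replicate 3, −0.18 without MNA replicate 1, and −0.18 to 0.20 with any 1 library left out), Il1rn with MNA (0.04 without DMSO replicate 1, 0.02 without MNA replicate 4, and −0.45 to 0.04 in all) and Il18 between olaparib and MNA (−0.02 without MNA replicate 2, −0.01 without it and with the replicate block, and −0.02 to 0.26 in all). RLE, upper-quartile and total-count scaling moved no count of family calls by over 1.5 times.

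The 2 up calls of the family with olaparib became 4 with DESeq2, 5 with the replicate block, 7 in the fit of 2 groups alone and 7 with the block and without MNA replicate 2, and 2 to 7 with 1 library left out. Of all tested genes, 14.3% were called up in the main fit, 15.4% with the replicate block and 22.5% without MNA replicate 2. For most other fits in this section the share of all genes was not computed, so changes in these counts are not a result about the family or the lists. With MNA the 1 up call became 2 with the replicate block (Il1rl1 was then called, at 0.93 ± 0.31, adjusted p = 0.0457), 4 with the block and without MNA replicate 2, and 0 in the fit of 2 groups alone or at an adjusted p under 0.01 (1 at an unadjusted p under 0.05, edgeR), and 0 to 2 with 1 library left out. The 1 down call became 0 with a mean of at least 50 counts, which removed Il1a, in the fit of 2 groups alone and at 0.01 (1 unadjusted in each of the last 2), and 0 to 1 with 1 library left out. Between olaparib and MNA 1 down call appeared with the block and without MNA replicate 2, and 0 to 1 with 1 library left out. Deviations of same-numbered MNA and DMSO libraries had r of 0.242, 0.114, −0.00938 and 0.277. With 1 of these near 0, the block is not relied on for MNA.

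In the 4 lists together, the 20 up calls with olaparib became 32 with the block and without MNA replicate 2 and 10 at 0.01, and 16 to 31 with 1 library left out. The 10 down calls became 16 with 2 groups alone, 19 with the block and without MNA replicate 2 and 4 at 0.01, and 6 to 16 with 1 library left out. With MNA the 18 up and 13 down calls became 0 and 0 with 2 groups alone (23 and 16 unadjusted) and at 0.01 (24 and 18), 28 and 24 with the block and without MNA replicate 2, and 6 to 27 and 0 to 22 with 1 library left out. The causes were not tested. At this depth Il1b and Il1r2 could not be resolved.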
